A study of Homo sapiens with 12 samples.

Results

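The 60 genes described here lie in bands 17p13.3 and 17p13.2, the end of the short arm of human chromosome 17 next to the telomere. They were listed by symbol and position, not by their values, though earlier results of these data were known. They were matched by Ensembl identifier to 60 of the 60660 genes counted. In GENCODE 29 on hg38 they run from VPS53, which starts at 508668, to DERL2, which ends at 5486811, on chromosome 17. All 60 are protein-coding and 60 of 60 passed the filter on low counts, against 21803 of the 60660 genes in all.

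RNA was sequenced from cells labelled HS578T, an established triple-negative breast cancer line, 48 h after treatment, in 4 groups of 3 libraries. The intact group in DMSO, the solvent control, has Cas9 in its titles and WT as its genotype. The deleted group in DMSO has 17PKO in its titles and is labelled as a knockout of 1 copy of 17p. Intact cells in doxorubicin, an anthracycline that blocks DNA topoisomerase, received 170 nM, and deleted cells received 1 µM. Genotype and dose therefore changed together wherever treated groups were compared. All 4 groups share the line, the culture medium and the 48 h. The labels leave unsaid how far along the arm the loss reaches, whether the 17PKO cells are 1 clone, and whether the 3 libraries of each group were grown apart. A p-value here therefore reflects the spread of these libraries alone, which may be technical.

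Loss of the short arm of chromosome 17 is among the frequent chromosome changes of cancers, and it takes the most distal genes with the rest of the arm. A gene that loses a copy often has less RNA, but transcription and RNA decay can shift the level in either direction. RNA that followed the loss of 1 of 2 copies would have a log2 fold change of -1. Cells with more copies would show a smaller change, and the copy number of these cells was not measured here.

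Library totals were 66150539 to 99142099 counts, and the 60 genes held 584254 to 839016 of them. Levels are given as counts per 1000000 (CPM), scaled by the trimmed mean of M values, and differences as log2 fold changes with a standard error (SE) from edgeR's quasi-likelihood fit of all 21803 genes. A gene is said to be higher, lower, risen or fallen where its adjusted p (edgeR, Benjamini-Hochberg over all genes tested) was under 0.05. Replicate 2 of the deleted DMSO group and replicate 1 of the intact doxorubicin group held 6.90% and 5.54% mitochondrial counts, against 2.61% to 3.57% in the other 10. A check of transcripts specific to 1 chromosome went against the recorded HS578T karyotype in 12 of 12 libraries, so groups are named by their labels. All 9 mesenchymal markers reached 1 CPM in every group and their summed level ran from 9486 to 9980.5 CPM in intact DMSO, 7107 to 7592 in deleted DMSO, 8340 to 8425 in intact doxorubicin and 4913 to 5043 CPM in deleted doxorubicin libraries. Of 10 epithelial markers 3 or 4 reached 1 CPM, and of 8 blood cell and 4 endothelial markers 0 did, except for 1 blood cell marker in the deleted doxorubicin group. The part of these levels in the results was not tested.

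In DMSO the 60 genes split in both directions, with 11 higher and 14 lower in the deleted libraries and 35 that did not pass. The 11 fell to 7 when replicate 1 or 3 of the intact DMSO group was left out, and to 6 without its replicate 2 or without any 1 of the 3 deleted doxorubicin libraries. The median log2 fold change was -0.06, against 0.04 over all genes tested. The background was 18.8% of all genes higher and 16.2% lower, and the members stood at 18.3% and 23.3%. Of the 14540 protein-coding genes tested 22.8% were higher and 20.1% lower, and the members' shares were not tested against these. The most telomeric genes were mostly higher and a stretch further in was mostly lower, so that neighbours on the same arm moved in different directions. In doxorubicin 17 were higher and 21 lower, which is 28.3% and 35.0% against a background of 25.9% and 21.9%, with a median of -0.09 against 0.02 over all genes tested. Among protein-coding genes these shares were 29.1% and 26.1%. In these bulk samples fewer cells with a transcript and less of it per cell cannot be told apart.

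**Figure D1:**
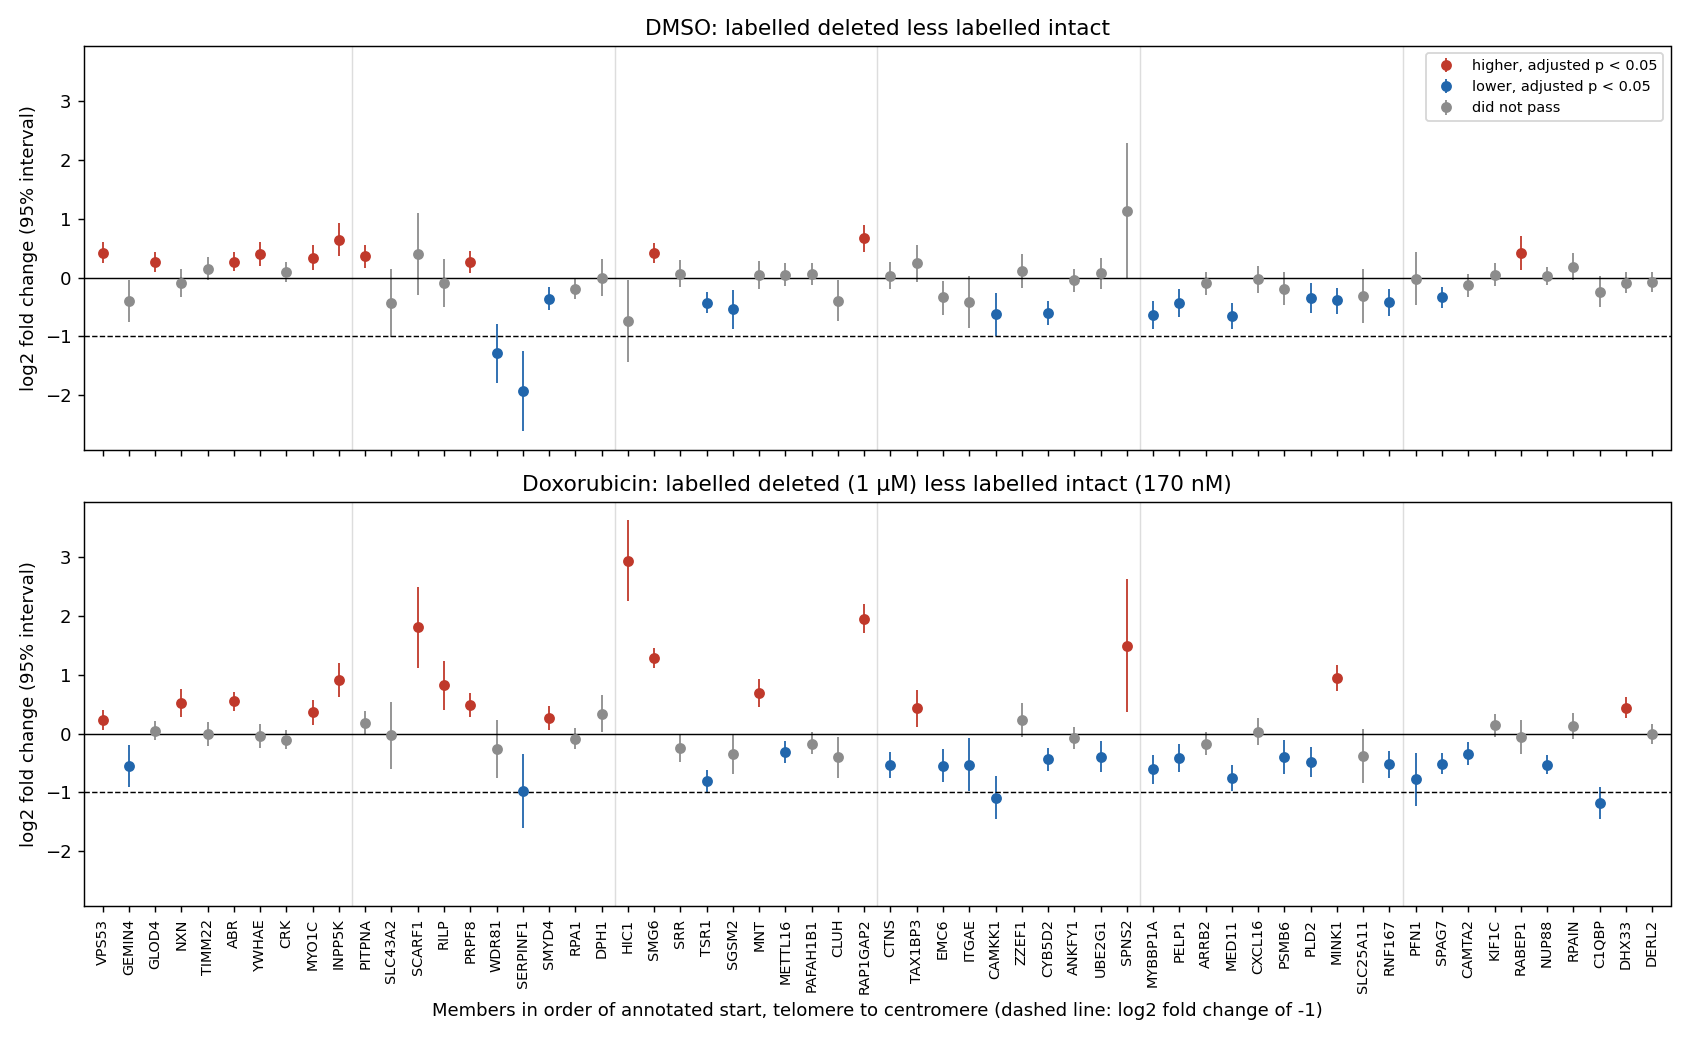
Log2 fold change of the 60 genes between libraries labelled deleted and intact (y axis, with 95% intervals), in order of annotated start from telomere to centromere (x axis), in DMSO (top) and in doxorubicin (bottom). Red points were higher and blue points lower at an adjusted p under 0.05, the dashed line marks -1, and grey vertical lines separate blocks of 10 genes. In DMSO 55 of 60 genes stood above -1 by the test against that value.

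Promoter sequences are shown for 4 genes on which the results turn, a pair with the RNA far higher in deleted doxorubicin libraries (RAP1GAP2, MINK1) and a pair with it lower (MED11, C1QBP). They are the 250 bases before a RefSeq start site (GRCh38.p14, the build of hg38), read 5′ to 3′ on the gene's strand. Capitals mark the letters GGGCGG on either strand, the GC box that Sp1-type factors bind.
RAP1GAP2 (chr17:2776508-2776757, plus strand): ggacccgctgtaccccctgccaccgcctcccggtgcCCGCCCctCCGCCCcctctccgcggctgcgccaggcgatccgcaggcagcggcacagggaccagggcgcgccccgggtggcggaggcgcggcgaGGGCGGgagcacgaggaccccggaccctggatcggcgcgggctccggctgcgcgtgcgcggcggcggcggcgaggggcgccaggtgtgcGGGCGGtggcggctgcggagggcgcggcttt
MINK1 (chr17:4833090-4833339, plus strand): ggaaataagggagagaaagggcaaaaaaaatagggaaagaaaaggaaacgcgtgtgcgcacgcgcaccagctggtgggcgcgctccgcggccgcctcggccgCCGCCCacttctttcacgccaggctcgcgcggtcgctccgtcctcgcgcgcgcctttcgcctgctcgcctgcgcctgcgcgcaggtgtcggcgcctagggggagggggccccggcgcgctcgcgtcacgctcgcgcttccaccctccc
MED11 (chr17:4731178-4731427, plus strand): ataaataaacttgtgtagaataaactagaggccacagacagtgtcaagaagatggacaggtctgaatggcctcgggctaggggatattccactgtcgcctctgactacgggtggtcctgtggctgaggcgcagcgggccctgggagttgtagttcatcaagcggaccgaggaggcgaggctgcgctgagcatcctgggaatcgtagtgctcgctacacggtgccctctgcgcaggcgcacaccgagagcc
C1QBP (chr17:5439156-5439405, minus strand): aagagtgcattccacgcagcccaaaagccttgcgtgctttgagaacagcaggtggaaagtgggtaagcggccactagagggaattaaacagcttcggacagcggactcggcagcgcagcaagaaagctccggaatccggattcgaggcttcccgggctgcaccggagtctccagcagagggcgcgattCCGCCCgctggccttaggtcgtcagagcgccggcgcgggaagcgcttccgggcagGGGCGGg
RAP1GAP2 has 5 windows in the table, of which the one farthest upstream is shown, and MINK1, MED11 and C1QBP have 1 each. The GC box was found 4 times in the RAP1GAP2 window shown (0 to 4 over its 5 windows), 1 time in that of MINK1, 0 times in that of MED11 and 2 times in that of C1QBP. Of the 60 genes 50 had at least 1 such window, 78 windows in all. Of the 78 windows 57 (73.1%) held GGGCGG on either strand, against 42.6% of all 35116 windows of this length. Some of the 78 overlap, as those of SMG6 and SRR do, and genes with more start sites weigh more. By gene, 40 of the 50 held it in at least 1 window, a share not worked out over all genes. The E-box CACGTG, the site of MYC and of its antagonist MNT, was in 12.8% of the members' windows and 6.34% of all, and CCAAT, on either strand, in 28.2% and 32%. A match is a run of letters and not a measured site.

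The test against a log2 fold change of -1 asked whether the RNA fell as far as the loss of 1 of 2 copies. In DMSO 55 of the 60 genes were above -1 by edgeR, 91.7% of them, where 69.9% of all genes and 79.9% of protein-coding ones were. In doxorubicin 54 were (90%), against 70.6% of all and 80.8% of protein-coding genes. A scarce or variable gene can fail this test without any fall. These shares therefore do not show whether the members fell less than other genes. The genes not shown to be above -1 were SLC43A2, WDR81, SERPINF1, HIC1 and CAMKK1 in DMSO, and SERPINF1, TSR1, ITGAE, CAMKK1, PFN1 and C1QBP in doxorubicin. Without 1 library the counts were 50 to 57 in DMSO and 48 to 55 in doxorubicin.

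By the 95% intervals of the log2 fold changes in DMSO, 29 genes held 0 and not -1, 16 lay between -1 and 0, 11 lay above 0, 2 held -1 and not 0, and 1 held both. SERPINF1 was the 1 gene whose interval lay below -1. In doxorubicin 18 held 0 and not -1, 20 lay between -1 and 0, 18 lay above 0 and 4 held -1 and not 0. A fall of less than 1 was thus more common among these genes than a fall of 1 in both treatments.

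Blocks of 10 neighbours differed in direction. Of protein-coding genes 22.8% were higher and 20.1% lower in DMSO, and 29.1% and 26.1% in doxorubicin. The first block, VPS53 to INPP5K, had 6 genes higher and 0 lower in DMSO with a median of 0.27. It had 5 higher and 1 lower in doxorubicin with a median of 0.14. Of its calls in DMSO, those of VPS53, YWHAE and INPP5K were kept in 22 of 22 alternative fits. Those of GLOD4, ABR and MYO1C were kept in 10, 14 and 11 of the 22. The fifth block, MYBBP1A to RNF167, had 0 higher and 6 lower in DMSO with a median of -0.37, and 10 of its 10 log2 fold changes were below 0. In doxorubicin that block had 1 higher, MINK1, and 6 lower, with a median of -0.41. The order of these blocks was the same in each deleted library. Against the mean of the intact DMSO libraries, the first block's median was 0.27, 0.22 and 0.26 in the 3 deleted DMSO libraries and 0.28, 0.28 and 0.25 in the deleted doxorubicin libraries. That of the fifth block was -0.30, -0.62 and -0.20, and -0.30, -0.40 and -0.36. In the intact doxorubicin libraries the first block's median was 0.04, 0.10 and 0.10, and the fifth's was -0.04, 0.31 and 0.01. Replicate 2 of that group thus had the reverse order.

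The blocks between and beyond these were mixed in DMSO. In doxorubicin CTNS to SPNS2 and PFN1 to DERL2 had more genes lower than higher, as the fifth block did. PITPNA to DPH1 had 2 higher and 3 lower in DMSO and 4 and 1 in doxorubicin, with medians of -0.14 and 0.23. HIC1 to RAP1GAP2 had 2 and 2, then 4 and 2, with medians of 0.04 and -0.21. CTNS to SPNS2 had 0 higher and 2 lower in DMSO and 2 and 6 in doxorubicin, with medians of -0.01 and -0.42. PFN1 to DERL2 had 1 and 1, then 1 and 5, with medians of -0.05 and -0.20. Over all alternative settings the first block's median stayed at 0.21 to 0.27 and the fifth's at -0.46 to -0.27 in DMSO. These differences between blocks were not tested, since neighbours share their libraries.

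Medians of the other genes of the interval did not follow this order, though few of these genes were called. Of 186 other annotated genes from VPS53 to DERL2, 78 were tested, and 9 were higher and 10 lower in DMSO (median -0.06). Of the 78, 36 are protein-coding, unlike the members, which all are. The 10 within the fifth block had a median of 0.39, with 1 higher and 1 lower. The 9 within the first had a median of 0.16, with 1 higher and 0 lower. The rest of 17p had 26 of 261 genes higher, 63 lower and a median of -0.15 in DMSO. On the long arm, 17q, no loss is labelled, yet 88 of 974 genes were higher, 248 lower and the median was -0.24. The distal genes thus had a median nearer to 0 than either in DMSO, and in doxorubicin their -0.09 lay between -0.06 for the rest of 17p and -0.16 for 17q.

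**Figure D2:**
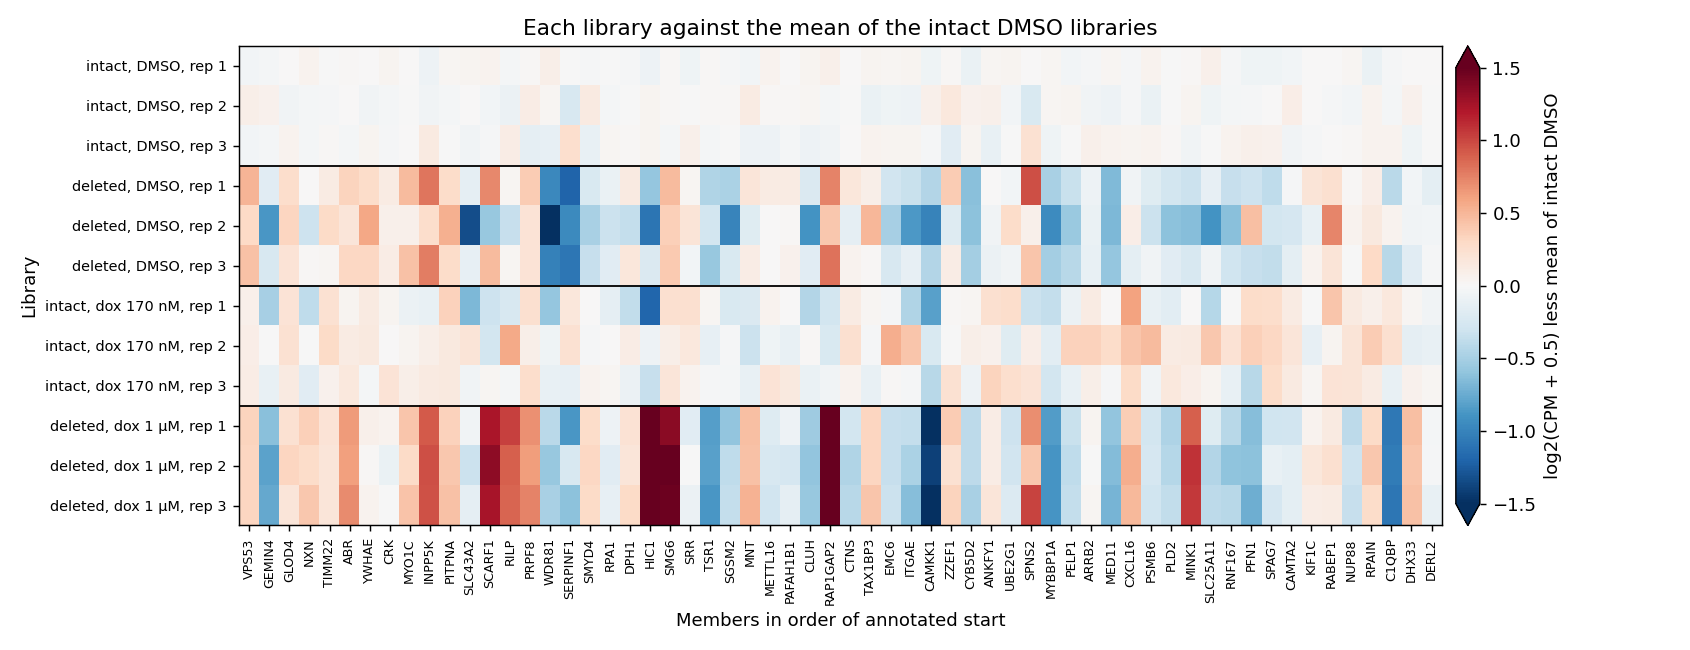
Each library (rows) against the mean of the intact DMSO libraries for the 60 genes in order of annotated start (columns), as the difference in log2(CPM + 0.5), with red higher and blue lower and colours capped at 1.5. RAP1GAP2, HIC1, SMG6 and MINK1 are red and CAMKK1 and C1QBP blue in the 3 deleted doxorubicin libraries, and replicate 2 of the deleted DMSO group differs most from the other libraries of its group.

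Replicate 2 of the deleted DMSO group stood apart for these genes. The standard deviation over the 60 genes of its log2 deviations was 0.401, against 0.219 and 0.227 in the other libraries of its group. Its deviations from the mean of its group's other libraries went with transcript GC content. The Spearman correlation was -0.659 over the 60 genes, given as a description, and -0.571 for intact doxorubicin replicate 1. Positive values were 0.511 in intact doxorubicin replicate 2 (3.57% mitochondrial counts), and 0.56 and 0.548 in deleted DMSO replicates 1 and 3. Each library was set against the others of its own group, so a negative trend in 1 library raises the values of the others. The positive values are therefore not separate observations. Those at -0.659 and -0.571 are the libraries of high mitochondrial share. The part of this in each result was not tested. With both left out, the calls of GLOD4 and RABEP1 in DMSO were lost (0.20 and 0.18, adjusted p = 0.0551 and 0.0769 by edgeR), as were those of VPS53 and SPNS2 in doxorubicin (0.17 and 1.08, adjusted p = 0.0507 and 0.0641). The same held for PFN1 with doxorubicin in deleted cells (-0.35, adjusted p = 0.085 by edgeR), and for RILP and TSR1 in the difference of effects (0.62 and -0.28, adjusted p = 0.0645 and 0.066).

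Genes higher in the deleted libraries in both treatments numbered 7, or 11.7%, against 12.4% of all genes and 15% of protein-coding ones. They were VPS53, ABR, MYO1C, INPP5K, PRPF8, SMG6 and RAP1GAP2, of which the first 4 lie in the first block. Genes lower in both numbered 10, or 16.7%, against 10.9% and 13.9%. They were SERPINF1, TSR1, CAMKK1, CYB5D2, MYBBP1A, PELP1, MED11, PLD2, RNF167 and SPAG7. A further 2, SMYD4 and MINK1, were lower in DMSO and higher in doxorubicin (3.33%, against 1.87% of all genes and 2.41% of protein-coding ones). Over the 60 genes the log2 fold changes of the genotype comparisons, which share no library, had the same sign in 43. Their Pearson r was 0.46 (Spearman rho 0.595), given as a description across genes. Signs and correlation were not worked out over all genes. Calls of all genes in both comparisons also mostly shared a direction (12.4% higher and 10.9% lower, against 1.87% opposite). Of the others 6 passed in DMSO alone, 19 in doxorubicin alone and 16 in neither.

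**Figure D3:**
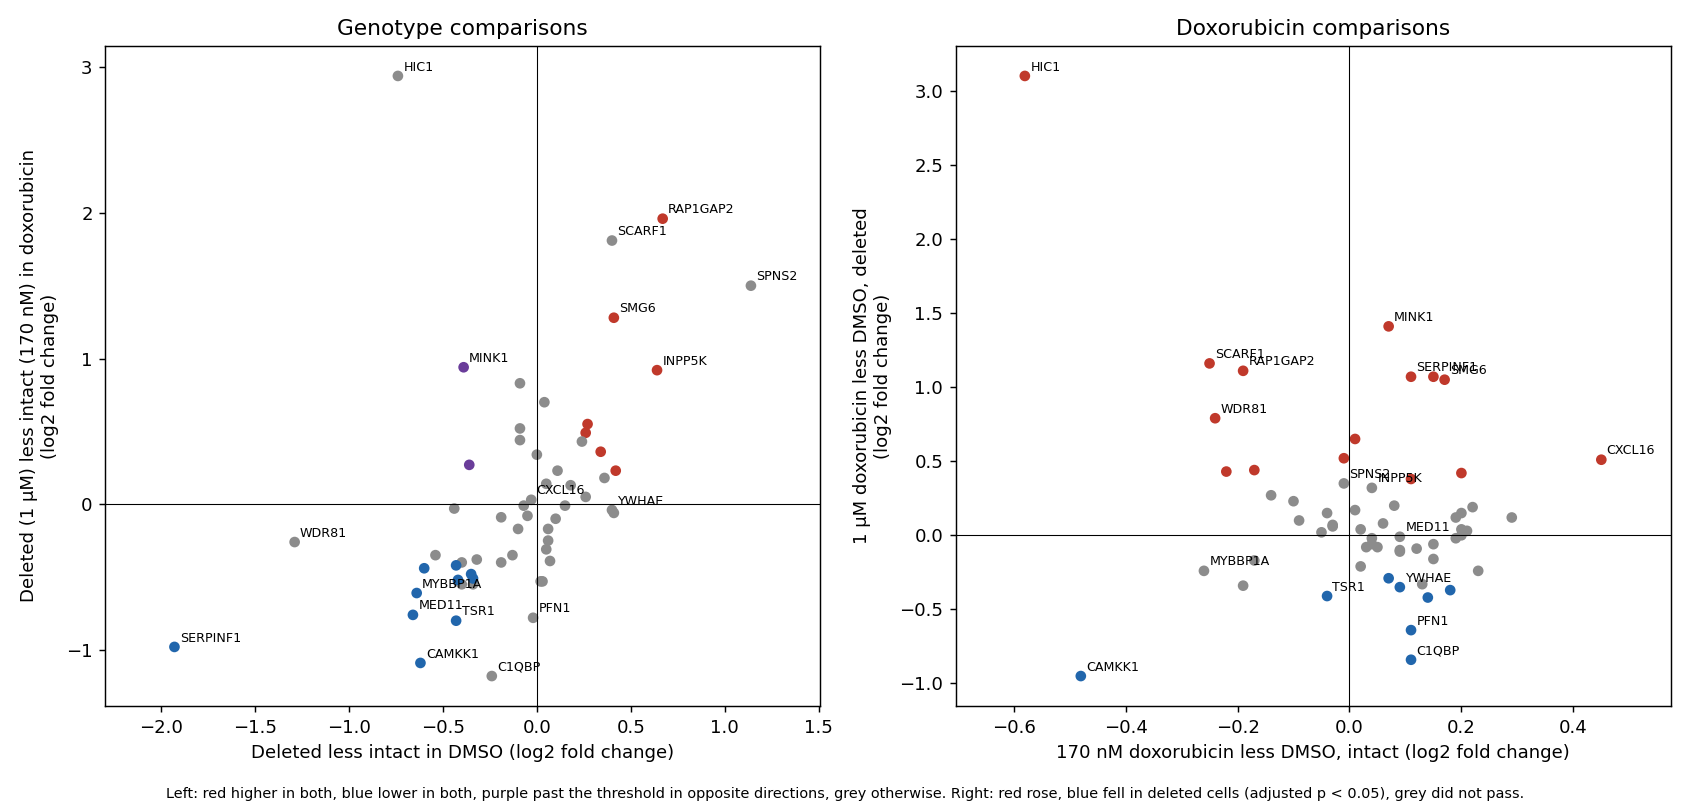
Log2 fold changes of the 60 genes, 1 point a gene. On the left, deleted less intact in DMSO (x axis) is set against the same in doxorubicin (y axis), with 7 genes higher in both in red, 10 lower in both in blue and 2 past the threshold in opposite directions in purple. On the right, the change with 170 nM doxorubicin in intact cells (x axis) is set against that with 1 µM in deleted cells (y axis), where 15 genes rose (red) and 8 fell (blue); the axes differ in scale.

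Counts by role stand beside 22.8% higher and 20.1% lower of protein-coding genes in DMSO, and 29.1% and 26.1% in doxorubicin. Differences between roles were not tested. Among genes for the cytoskeleton, motors and membrane traffic, 4 of 11 were higher and 2 lower in DMSO, and 3 and 1 in doxorubicin. VPS53 (ENSG00000141252.20, 508668 to 721717), a subunit of the GARP complex that tethers vesicles returning to the Golgi, stood at 87.7, 96.4 and 87.6 CPM in the intact and 129, 111 and 123 in the deleted DMSO libraries, and at 95.1, 97.2 and 97.5 in the intact and 114, 113 and 113 in the deleted doxorubicin libraries. Each deleted library was above each intact one in both treatments. The log2 fold change was 0.42 (SE 0.08, adjusted p = 0.00116) in DMSO and 0.23 (SE 0.08, adjusted p = 0.0291) in doxorubicin. The second of these lay near the threshold, and 7 of 12 fits that left out 1 library lost it (adjusted p up to 0.158 by edgeR). MYO1C (ENSG00000197879.17, 1464186 to 1492812), an unconventional myosin that moves vesicles along actin, stood at 315, 310.2 and 313 CPM in the intact and 435, 331 and 423 in the deleted DMSO libraries, and at 295, 323 and 332 in the intact and 419, 382 and 419.7 in the deleted doxorubicin libraries. Groups did not overlap in either treatment, though replicate 2 of the deleted DMSO group came close to the intact level. The differences were 0.34 (SE 0.10, adjusted p = 0.019) and 0.36 (SE 0.10, adjusted p = 0.00954), and without 1 library 8 of 12 and 3 of 12 fits lost the calls (adjusted p up to 0.123 and 0.0871 by edgeR).

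WDR81 (ENSG00000167716.19, 1716523 to 1738599), which acts in endosome maturation and autophagy, was among the lowest in DMSO. It stood at 57.6, 55.3 and 49.9 CPM in the intact and 27.5, 12.4 and 26.6 in the deleted DMSO libraries, and at 36, 51.6 and 50.3 in the intact and 40.7, 36.3 and 38.4 in the deleted doxorubicin libraries. The deleted libraries were all below the intact ones in DMSO, whereas replicate 1 of the intact doxorubicin group lay just below the deleted ones. The log2 fold change was -1.29 (SE 0.23, adjusted p = 7.66e-04) in DMSO and -0.26 (SE 0.23, adjusted p = 0.377) in doxorubicin. RABEP1 (ENSG00000029725.17, 5282265 to 5385812), an effector of the endosomal GTPase RAB5, stood at 133, 131 and 133 CPM in the intact and 157, 221 and 151 in the deleted DMSO libraries, and at 177, 136 and 152 in the intact and 145, 157 and 144 in the deleted doxorubicin libraries. It was higher in DMSO, at 0.41 (SE 0.13, adjusted p = 0.0291), and at -0.06 (SE 0.13, adjusted p = 0.738) in doxorubicin, where the groups overlapped. The DMSO value was 0.20 with deleted DMSO replicate 2 left out (adjusted p = 0.147 by edgeR).

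PFN1 (ENSG00000108518.8, 4945652 to 4949061), which encodes profilin, an actin monomer binding protein, had the highest level per kb of exon among the 60 genes, at 441 CPM per kb. It stood at 906, 938 and 998 CPM in the intact and 762, 1291 and 746 in the deleted DMSO libraries, and at 1147, 1214 and 712 in the intact and 607, 617 and 569 in the deleted doxorubicin libraries. The intact and deleted DMSO libraries overlapped widely, and the libraries at 1291, 1147 and 1214 CPM lay well above the rest. In doxorubicin each deleted library was lower, with a log2 fold change of -0.78 (SE 0.21, adjusted p = 0.00721). PITPNA, a phosphatidylinositol transfer protein, was also higher in DMSO (0.36), SGSM2, a regulator of RAB GTPases, lower (-0.54), and RILP, which links lysosomes to dynein, higher in doxorubicin (0.83). ANKFY1, KIF1C and PAFAH1B1, which encodes the dynein regulator LIS1, passed in neither genotype comparison, with log2 fold changes of -0.05, 0.05 and 0.06 in DMSO.

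Signalling adaptors and enzymes had 4 of 11 higher and 3 lower in DMSO, and 6 and 2 in doxorubicin. RAP1GAP2 (ENSG00000132359.15, 2755705 to 3037739), which switches off the GTPase RAP1, had the highest increase past the threshold of the 60 genes in DMSO. It stood at 57.2, 53.2 and 52.2 CPM in the intact and 91.2, 71.6 and 95.8 in the deleted DMSO libraries, and at 44.5, 46 and 52.4 in the intact and 189, 183 and 185 in the deleted doxorubicin libraries. The groups were apart in both treatments, and the treated deleted libraries were about the same as each other. The log2 fold change was 0.67 (SE 0.11, adjusted p = 3.35e-04) in DMSO and 1.96 (SE 0.11, adjusted p = 1.16e-08) in doxorubicin.

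INPP5K (ENSG00000132376.20, 1494571 to 1516888), a phosphatase that removes the 5-phosphate from phosphoinositides, stood at 20.2, 20.4 and 23.3 CPM in the intact and 37.6, 25.7 and 36.4 in the deleted DMSO libraries, and at 19.7, 22.7 and 23.4 in the intact and 40.5, 42.1 and 41.6 in the deleted doxorubicin libraries. Its deleted libraries were above the intact ones in both treatments, by 0.64 (SE 0.13, adjusted p = 0.0021) and 0.92 (SE 0.13, adjusted p = 7.20e-05). ABR (ENSG00000159842.15, 1003518 to 1229738) stood at 162, 161 and 157 CPM in the intact and 201, 181 and 198 in the deleted DMSO libraries, and at 165, 174 and 178 in the intact and 249, 246 and 262 in the deleted doxorubicin libraries. Again no deleted library overlapped an intact one. The differences were 0.27 (SE 0.08, adjusted p = 0.0133) and 0.55 (SE 0.08, adjusted p = 4.58e-05), and the call in DMSO was lost in 6 of 12 fits that left out 1 library (adjusted p up to 0.108 by edgeR).

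CAMKK1 (ENSG00000004660.15, 3860315 to 3894891), a calcium-dependent kinase that activates other CaM kinases, was lower in both treatments. It stood at 22.3, 24.7 and 23 CPM in the intact and 17.1, 11.4 and 17 in the deleted DMSO libraries, and at 13, 19.8 and 17.3 in the intact and 7.61, 8.54 and 7.37 in the deleted doxorubicin libraries. The deleted libraries lay below the intact ones in each treatment, and the intact doxorubicin libraries below the intact DMSO ones. The log2 fold changes were -0.62 (SE 0.17, adjusted p = 0.0117) and -1.09 (SE 0.17, adjusted p = 1.46e-04). MINK1 (ENSG00000141503.17, 4833388 to 4898061), a kinase upstream of JNK signalling, stood at 152, 154 and 144 CPM in the intact and 119.6, 95.9 and 127 in the deleted DMSO libraries, and at 151, 164 and 160.1 in the intact and 279.9, 318 and 313 in the deleted doxorubicin libraries. It was below the intact level in DMSO, at -0.39 (SE 0.10, adjusted p = 0.00895), and above it in doxorubicin, at 0.94 (SE 0.10, adjusted p = 5.56e-06). The reversal was the same in all 3 libraries of each group.

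YWHAE, which encodes an adaptor of the 14-3-3 family and had the second highest level per kb of exon (325 CPM per kb), was higher in DMSO and not past the threshold in doxorubicin. Its means were 1133 ± 35.6 and 1492 ± 181 CPM (SD, n = 3) in DMSO, a difference of 0.40, which was 0.26 without both libraries of high mitochondrial share. NXN, a thioredoxin-like regulator of WNT signalling, was higher in doxorubicin (0.52) and PLD2, a phospholipase, lower in both (-0.35 and -0.48). The call of PLD2 in DMSO was lost without 5 of the 12 libraries taken singly (adjusted p up to 0.105 by edgeR). TAX1BP3, a PDZ protein, was higher in doxorubicin (0.43), a call lost in 6 of 12 fits without 1 library (adjusted p up to 0.134 by edgeR) and with the GC trend removed (0.38, adjusted p = 0.112), and it shares most of its exon bases with a readthrough transcript. CRK, an adaptor of tyrosine kinase signalling, and ARRB2, an arrestin, passed in neither.

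**Figure D4:**
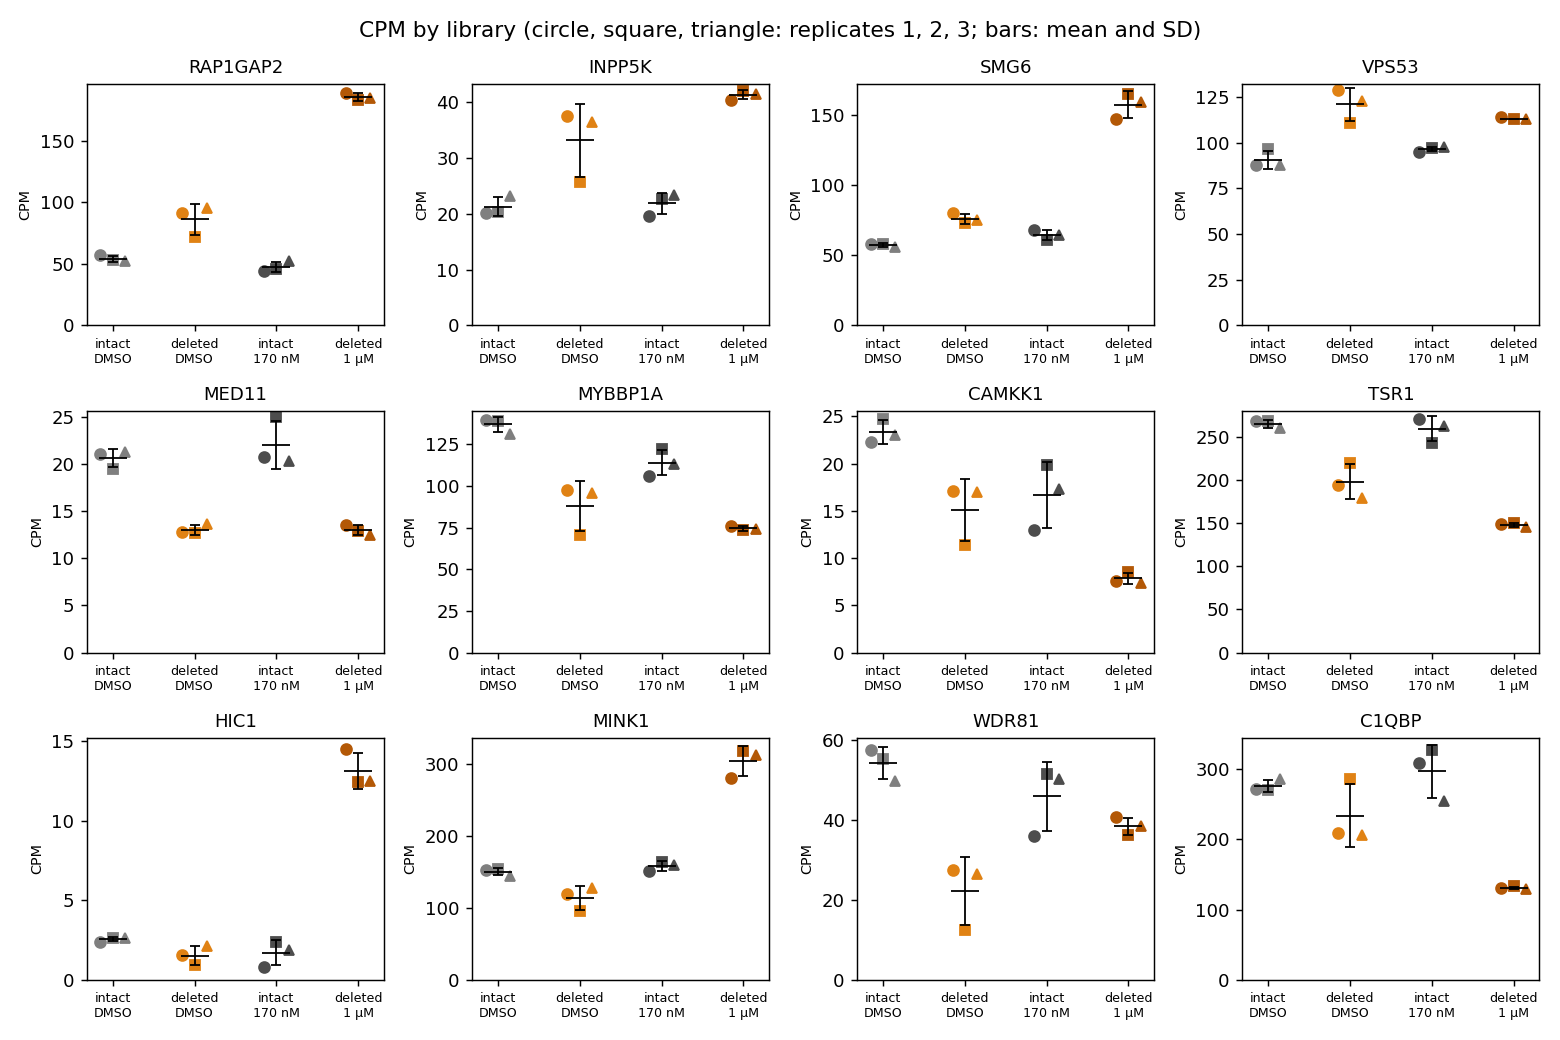
CPM (y axis, from 0) of 12 of the genes in each library, by group (x axis), with replicates 1, 2 and 3 as circle, square and triangle and bars for mean and SD of 3 libraries. RAP1GAP2, INPP5K, SMG6 and VPS53 are higher and MED11, MYBBP1A, CAMKK1 and TSR1 lower in deleted libraries in both treatments, while HIC1 and MINK1 rise above all other groups in the deleted doxorubicin libraries.

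RNA processing, ribosome assembly and nuclear pore genes had 2 of 7 higher and 1 lower in DMSO. In doxorubicin 3 were higher and 4 lower, where 29.1% of protein-coding genes were higher and 26.1% lower. SMG6 (ENSG00000070366.14, 2059839 to 2303771), the endonuclease of nonsense-mediated decay, stood at 57.7, 58 and 55.8 CPM in the intact and 79.9, 73.2 and 75.1 in the deleted DMSO libraries, and at 67.7, 60.9 and 64.7 in the intact and 147, 165 and 159 in the deleted doxorubicin libraries. Each deleted library was above each intact one in both treatments, and the treated deleted ones lay above all others. The differences were 0.41 (SE 0.08, adjusted p = 0.00148) and 1.28 (SE 0.08, adjusted p = 3.40e-08). PRPF8 (ENSG00000174231.17, 1650629 to 1684882), the largest protein of the spliceosome core, stood at 1055, 1127 and 949.9 CPM in the intact and 1356, 1200 and 1199 in the deleted DMSO libraries, and at 1227, 1111 and 1250.1 in the intact and 1680.3, 1614 and 1747 in the deleted doxorubicin libraries. The groups did not overlap, with log2 fold changes of 0.26 (SE 0.09, adjusted p = 0.0391) and 0.49 (SE 0.09, adjusted p = 5.51e-04), and the first of these lost the call in 8 of 12 fits without 1 library (adjusted p up to 0.176 by edgeR).

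TSR1 (ENSG00000167721.11, 2322503 to 2337507), needed for maturation of the small ribosomal subunit, stood at 268, 268 and 260.2 CPM in the intact and 194, 219 and 179 in the deleted DMSO libraries, and at 271, 243 and 262 in the intact and 149, 150.3 and 145 in the deleted doxorubicin libraries. Deleted libraries were lower throughout and lowest with doxorubicin. Its log2 fold changes were -0.43 (SE 0.09, adjusted p = 0.00175) and -0.80 (SE 0.09, adjusted p = 4.50e-06), and 20.8% of its exon bases lie opposite to other exons. NUP88 (ENSG00000108559.12, 5360963 to 5420160), a nuclear pore protein, stood at 124, 118 and 123 CPM in the intact and 123, 126 and 121 in the deleted DMSO libraries, and at 134, 139 and 139 in the intact and 92.3, 98.3 and 96 in the deleted doxorubicin libraries. It overlapped between genotypes in DMSO and was below in doxorubicin, with 0.02 (SE 0.07, adjusted p = 0.838) and -0.53 (SE 0.07, adjusted p = 3.90e-05). GEMIN4, of the SMN complex that assembles spliceosomal RNPs, and METTL16, an RNA methyltransferase, were lower in doxorubicin (-0.55 and -0.31), and DHX33, an RNA helicase, was higher (0.44).

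Transcription and DNA replication genes had 0 of 8 higher and 3 lower in DMSO, and 2 and 4 in doxorubicin. MYBBP1A (ENSG00000132382.15, 4538897 to 4555631), a nucleolar protein that binds MYB, stood at 139.6, 139 and 131 CPM in the intact and 97.5, 70.6 and 95.6 in the deleted DMSO libraries, and at 106, 122 and 113 in the intact and 76.2, 73.4 and 73.9 in the deleted doxorubicin libraries. PELP1 (ENSG00000141456.16, 4669774 to 4704337), a coregulator of steroid receptors, stood at 158, 168 and 162 CPM in the intact and 129, 110.2 and 122 in the deleted DMSO libraries, and at 153, 206 and 151 in the intact and 129, 125 and 127 in the deleted doxorubicin libraries. MED11 (ENSG00000161920.11, 4731428 to 4733610), a subunit of the Mediator complex of RNA polymerase II, stood at 21, 19.5 and 21.3 CPM in the intact and 12.8, 12.7 and 13.6 in the deleted DMSO libraries, and at 20.7, 25 and 20.3 in the intact and 13.5, 12.9 and 12.5 in the deleted doxorubicin libraries. In all of these each deleted library was below each intact one in both treatments. The log2 fold changes in DMSO and doxorubicin were -0.64 (SE 0.11, adjusted p = 6.16e-04) and -0.61 (SE 0.11, adjusted p = 4.70e-04) for MYBBP1A, and -0.43 (SE 0.11, adjusted p = 0.00879) and -0.42 (SE 0.11, adjusted p = 0.00738) for PELP1. For MED11 they were -0.66 (SE 0.10, adjusted p = 2.63e-04) and -0.76 (SE 0.10, adjusted p = 3.93e-05), with 36.9% of its exon bases opposite to exons on the other strand, those of CXCL16 among them.

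HIC1 (ENSG00000177374.13, 2054154 to 2063241), a zinc finger repressor often silenced by methylation in cancer, had the largest difference of the 60 genes in doxorubicin. It stood at 2.39, 2.62 and 2.62 CPM in the intact and 1.54, 0.923 and 2.11 in the deleted DMSO libraries, and at 0.830, 2.38 and 1.90 in the intact and 14.5, 12.4 and 12.5 in the deleted doxorubicin libraries. In DMSO it was low, and the lowest values of the untreated deleted and of the treated intact group were in the libraries of high mitochondrial share. The log2 fold change was -0.74 (SE 0.32, adjusted p = 0.0909) in DMSO and 2.94 (SE 0.32, adjusted p = 5.15e-06) in doxorubicin. Its exon bases overlap antisense exons, those of SMG6 among them, over 29.8% of their length. Without a stated strand setting, reads of HIC1 and SMG6, which both rose in treated deleted cells, cannot be told apart over that stretch. MNT, a repressor of MYC targets, was higher in doxorubicin (0.70) and CAMTA2, a calmodulin-binding activator, lower (-0.35). RPA1, the large subunit of the single-stranded DNA binding complex, did not pass, at -0.19 and -0.09, nor did RPAIN, which carries that complex into the nucleus, at 0.18 and 0.13.

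Membrane transporters, surface and secreted proteins had 0 of 7 higher and 1 lower in DMSO, and 2 and 3 in doxorubicin. SERPINF1 (ENSG00000132386.11, 1761959 to 1777574), which encodes the secreted antiangiogenic protein PEDF, stood at 1.25, 0.989 and 1.60 CPM in the intact and 0.266, 0.407 and 0.328 in the deleted DMSO libraries, and at 1.48, 1.57 and 1.12 in the intact and 0.461, 0.994 and 0.646 in the deleted doxorubicin libraries. It was scarce everywhere and the deleted libraries were lower in both treatments. Its log2 fold changes were -1.93 (SE 0.32, adjusted p = 3.87e-04) and -0.98 (SE 0.30, adjusted p = 0.0143). SCARF1 (ENSG00000074660.16, 1633858 to 1645747), a scavenger receptor of endothelial cells, stood at 1.38, 1.26 and 1.28 CPM in the intact and 2.47, 0.719 and 2.0 in the deleted DMSO libraries, and at 0.959, 0.994 and 1.34 in the intact and 3.72, 4.09 and 3.75 in the deleted doxorubicin libraries. Deleted libraries spread widely in DMSO and were above in doxorubicin, with 0.40 (SE 0.32, adjusted p = 0.369) and 1.81 (SE 0.32, adjusted p = 3.82e-04).

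CTNS (ENSG00000040531.16, 3636468 to 3661542), the lysosomal cystine exporter, stood at 23.3, 23.1 and 23.2 CPM in the intact and 26.2, 21 and 24.1 in the deleted DMSO libraries, and at 25.3, 27.6 and 24.1 in the intact and 19.1, 16.9 and 17.3 in the deleted doxorubicin libraries. The DMSO groups overlapped, and treated deleted libraries were below all others, with 0.03 (SE 0.10, adjusted p = 0.831) and -0.53 (SE 0.10, adjusted p = 7.88e-04). SPNS2 (ENSG00000183018.9, 4498838 to 4539035), an exporter of sphingosine-1-phosphate, had the lowest level of the 60 genes, at 0.258, 0.143 and 0.387 CPM in the intact and 0.977, 0.299 and 0.505 in the deleted DMSO libraries, and at 0.104, 0.311 and 0.374 in the intact and 0.729, 0.502 and 1.03 in the deleted doxorubicin libraries. The difference was 1.14 (SE 0.53, adjusted p = 0.117) in DMSO and 1.5 (SE 0.53, adjusted p = 0.0303) in doxorubicin, and the second lost its call in 4 of 12 fits without 1 library (adjusted p up to 0.136 by edgeR), among them that without intact doxorubicin replicate 1, at 1.09. ITGAE, an integrin subunit, was lower in doxorubicin (-0.53), but at -0.32 without replicate 2 of the intact group (adjusted p = 0.215 by edgeR). CXCL16, a chemokine, and SLC43A2, an amino acid transporter, passed in neither.

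Protein quality control and degradation genes had 0 of 5 higher in either treatment, 1 lower in DMSO and 4 lower in doxorubicin. RNF167 (ENSG00000108523.16, 4940008 to 4945222), a lysosomal ubiquitin ligase, stood at 169, 168 and 177 CPM in the intact and 135, 111 and 139 in the deleted DMSO libraries, and at 171, 199 and 159 in the intact and 128, 113 and 128 in the deleted doxorubicin libraries. Deleted libraries were below the intact ones in both, by log2 fold changes of -0.42 (SE 0.11, adjusted p = 0.00773) and -0.52 (SE 0.11, adjusted p = 0.00118). EMC6, of a complex that inserts membrane proteins, PSMB6, a proteasome subunit, and UBE2G1, a ubiquitin-conjugating enzyme, were lower in doxorubicin, at -0.55, -0.40 and -0.39, though 74.3% of the exon bases of EMC6 lie opposite to other exons. The value of PSMB6 was -0.23 without replicate 2 of the intact doxorubicin group (adjusted p = 0.0771 by edgeR). DERL2, of the ER export channel for misfolded proteins, passed in neither.

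Mitochondrial import, transport and upkeep genes had 0 of 4 past the threshold in DMSO and 1 lower in doxorubicin. That gene was C1QBP (ENSG00000108561.8, 5432777 to 5448830), a mitochondrial matrix protein needed for translation there, which stood at 272, 270.4 and 286 CPM in the intact and 209, 286 and 207 in the deleted DMSO libraries, and at 309, 327 and 255 in the intact and 131, 133 and 129.8 in the deleted doxorubicin libraries. The DMSO groups overlapped through replicate 2 of the deleted group, and in doxorubicin the deleted libraries lay far below. The log2 fold changes were -0.24 (SE 0.12, adjusted p = 0.158) and -1.18 (SE 0.13, adjusted p = 4.04e-06). TIMM22, CLUH and SLC25A11 did not pass, with -0.01, -0.40 and -0.38 in doxorubicin.

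Other enzymes and less studied proteins had 1 of 7 higher and 3 lower in DMSO, and 1 and 2 in doxorubicin. CYB5D2 (ENSG00000167740.10, 4143168 to 4187310), a heme-binding protein, stood at 26.4, 29.6 and 29.3 CPM in the intact and 18.2, 18.3 and 19.8 in the deleted DMSO libraries, and at 29, 30.2 and 26.8 in the intact and 21.6, 21.6 and 20.1 in the deleted doxorubicin libraries. Groups were apart in both treatments, with log2 fold changes of -0.60 (SE 0.09, adjusted p = 2.21e-04) and -0.44 (SE 0.09, adjusted p = 0.00131). SMYD4 (ENSG00000186532.12, 1779485 to 1830634), of a family of SET-domain methyltransferases, stood at 51.5, 57.6 and 48.2 CPM in the intact and 44.5, 37.1 and 41 in the deleted DMSO libraries, and at 52.6, 51.8 and 54.2 in the intact and 63.3, 64.9 and 63.7 in the deleted doxorubicin libraries. Deleted libraries were below in DMSO and above in doxorubicin, with -0.36 (SE 0.09, adjusted p = 0.00862) and 0.27 (SE 0.09, adjusted p = 0.0265). The second of these was lost in 6 of 12 fits without 1 library (adjusted p up to 0.128 by edgeR). SPAG7 was lower in both (-0.34 and -0.51), GLOD4 higher in DMSO (0.26), with adjusted p up to 0.148 by edgeR without 1 library. DPH1, needed to make diphthamide, SRR, a serine racemase, and ZZEF1 passed in neither.

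The next question was how doxorubicin changed these genes in each genotype. In intact cells at 170 nM 0 of 60 rose and 0 fell by edgeR, where 0.0275% of all genes rose and 0.0321% fell. At an unadjusted p under 0.05 there were 9 of the 60, and 2504 of all genes. DESeq2 called 1, CXCL16, a chemokine with a transmembrane form, which had the lowest adjusted p of the 60 by edgeR. It stood at 18.6, 18.6 and 19.4 CPM in the intact and 18.2, 20.2 and 17 in the deleted DMSO libraries, and at 29, 25.3 and 23.1 in the intact and 24.6, 27.8 and 26.6 in the deleted doxorubicin libraries. The treated libraries were above the untreated ones in both genotypes, with 0.45 (SE 0.11, adjusted p = 0.13) in intact and 0.51 (SE 0.11, adjusted p = 0.00235) in deleted cells. It was also past the threshold by edgeR in intact cells when deleted DMSO replicate 2 was left out.

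In deleted cells at 1 µM 15 of the 60 genes rose and 8 fell, against 17.5% and 13.1% of all genes, and 21.0% and 14.3% of protein-coding ones. HIC1 rose by 3.10 (SE 0.33, adjusted p = 7.03e-06), MINK1 by 1.41 (SE 0.10, adjusted p = 2.54e-07), SCARF1 by 1.16 (SE 0.31, adjusted p = 0.0122) and RAP1GAP2 by 1.11 (SE 0.11, adjusted p = 3.79e-06). CAMKK1 fell, at -0.95 (SE 0.17, adjusted p = 8.58e-04), as did C1QBP at -0.84 (SE 0.12, adjusted p = 1.72e-04), PFN1 at -0.64 (SE 0.21, adjusted p = 0.0313) and CTNS at -0.42 (SE 0.10, adjusted p = 0.00681). With deleted DMSO replicate 2 left out PFN1 was at -0.35 (adjusted p = 0.0979 by edgeR) and SCARF1 at 0.77. RNA processing genes split, with 3 of 7 up (SMG6, PRPF8 and DHX33) and 3 down (TSR1, METTL16 and NUP88). The second block, PITPNA to DPH1, had 6 of 10 up and 0 down, with a median of 0.54, and among them were RILP (1.07), SERPINF1 (1.07) and WDR81 (0.79). The calls of SERPINF1 and WDR81 were lost without 3 and 1 of the 12 libraries taken singly (adjusted p up to 0.122 and 0.0584 by edgeR), and WDR81 was at 0.49 with deleted DMSO replicate 2 left out.

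The change with doxorubicin differed between the genotypes, which also differed in dose, in 16 of the 60 genes. In 11 the change was higher in deleted cells and in 5 lower, which is 18.3% and 8.33% against 10.3% and 6.74% of all genes, and 12.4% and 8.6% of protein-coding ones. The share of these calls that were higher was 68.8%, 83.3% with library totals as the scaling and 52.6% with the GC trend of each library removed. The 5 lower became 8 with intact doxorubicin replicate 2 left out, 3 without its replicate 1 or intact DMSO replicate 1 or 3 or deleted doxorubicin replicate 1, and 2 without intact DMSO replicate 2 or deleted doxorubicin replicate 2 or 3. The difference was 3.68 (SE 0.45, adjusted p = 6.73e-05) for HIC1, 1.34 (SE 0.15, adjusted p = 2.55e-05) for MINK1, 1.29 (SE 0.15, adjusted p = 5.18e-05) for RAP1GAP2 and 0.87 (SE 0.11, adjusted p = 1.29e-04) for SMG6. On the other side it was -0.94 (SE 0.18, adjusted p = 0.00206) for C1QBP and -0.55 (SE 0.10, adjusted p = 0.0019) for NUP88.

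Genes elsewhere that work with the members, or are their paralogs, were read from the same fit. Of 39 such genes 6 were higher and 13 lower in DMSO (15.4% and 33.3%), with a median of -0.04. Of all genes 18.8% were higher and 16.2% lower, and of protein-coding ones 22.8% and 20.1%. In doxorubicin 4 were higher and 17 lower (10.3% and 43.6%), with a median of -0.17. All genes stood at 25.9% and 21.9% there, and protein-coding ones at 29.1% and 26.1%. The 6 chosen by lowest p in both treatments were all lower. DERL1, the paralog of DERL2, stood at 186, 175 and 189 CPM in the intact and 83.4, 87.8 and 85.6 in the deleted DMSO libraries, a log2 fold change of -1.10 there and -1.38 in doxorubicin. DERL2 itself was at -0.07 and -0.01. VPS52, which joins VPS53 in the GARP complex, stood at 85.9, 91.5 and 87.8 CPM in the intact and 50.7, 58.1 and 53 in the deleted DMSO libraries and was at -0.71 and -0.97, opposite in sign to VPS53. YWHAH, a paralog of YWHAE on chromosome 22, was at -0.81 and -1.03. Of the 5 paralogs of that family 2 were lower and 0 higher in DMSO, 3 and 0 in doxorubicin. GEMIN2, of the SMN complex with GEMIN4, was at -0.80 and -1.40. MLX, which pairs with MNT and lies on 17q, was at -0.52 and -0.97. SLC7A5, an amino acid transporter like SLC43A2, was at -0.59 and -0.63. Of the genes named after their values were seen, UBE2G2, a paralog of UBE2G1 on chromosome 21, was higher in both (0.47 and 0.27). Among these CAMKK2, a paralog of CAMKK1, was higher in DMSO (0.39) and ARRB1 and PLD1, paralogs of ARRB2 and PLD2, in doxorubicin (1.22 and 0.50). The part of chromosome position in the values of these partners and paralogs was not tested.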

How the data were processed

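The authors deposited a table of raw read counts, with 1 column for each of the 12 libraries. Total RNA was sequenced in paired reads on a NovaSeq, per the labels' protocols. Per the submitters' processing notes, tools named are STAR 2.7.9a and featureCounts of Subread 2.0.1, and the build is hg38. For the annotation release and strand setting: not given in the sources used here. Of the 60 genes 41 have exon bases on both strands with another gene, in 6 over 20% of their length, and these are uncertain.

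Counts were filtered with filterByExpr, scaled by the trimmed mean of M values and fitted for 4 groups with edgeR 4.0.16 (R 4.3.3), over 21803 genes, with Benjamini-Hochberg adjustment and a threshold of 0.05. SE is the log2 fold change over the root of F, and 95% intervals use the fit's degrees of freedom. The comparisons were deleted less intact in each treatment, doxorubicin less DMSO in each genotype, and the difference of the latter. The fit was tested on simulated data. Positions, exon overlap and transcript GC content come from GENCODE 29 (known for 98.0% of genes tested), and promoter windows from RefSeq's GRCh38.p14. Pairs of libraries within a group differed by more than sampling noise, so none was counted as a duplicate.

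Values in every library are given for the genes past the threshold in the same direction in both genotype comparisons (up to 8 each way), the 4 highest and 4 lowest in each comparison that had calls, those with the lowest p in the difference of effects, and those in opposite directions. Alternatives were RLE size factors, library totals, other filters, DESeq2 1.42.0, fits of only the groups compared, the replicate block, removal of the GC trend by loess (span 0.5), a 2-fold change as well, and leaving out libraries. The members and lists were chosen with earlier results of these data known.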

Additional observations from a re-analysis of the deposited data

Results flagged for a closer look

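In 16 of the 60 genes the change with doxorubicin differed between the genotypes by edgeR's test of the difference itself, at an adjusted p under 0.05. Dose differed with genotype (1 µM and 170 nM), and these cannot be told apart. The change was higher in deleted cells by a log2 difference of 3.68 for HIC1, 1.41 for SCARF1, 1.34 for MINK1, 1.29 for RAP1GAP2, 1.03 for WDR81, 0.92 for RILP and 0.87 for SMG6. It was higher by 0.65 for MNT, 0.63 for SMYD4, 0.61 for NXN and 0.53 for DHX33. It was lower, at -0.94 for C1QBP, -0.56 for CTNS, -0.55 for NUP88, -0.43 for YWHAE and -0.38 for TSR1.

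Of these, SCARF1 and TSR1 lost the call in 10 of 12 fits that left out 1 library, RILP in 9, WDR81 in 8, YWHAE in 7 and CTNS in 3. Adjusted p by edgeR in those fits reached at most 0.104, 0.136, 0.086, 0.107, 0.10 and 0.0596 in that order. Without both libraries of high mitochondrial share the difference was 0.93 for SCARF1, 0.62 for RILP and 0.58 for WDR81. MNT was at 0.42 with the GC trend removed (adjusted p = 0.0735 by edgeR). HIC1 shares exon bases with SMG6 on the opposite strand.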

How the results depend on the processing

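Of 365 alternative values of the counts and medians, 302 stayed within 1.5 times the count or within the spread of replicates, and none changed sign among called genes. Leaving out 1 library at a time gave 6 to 11 higher and 13 to 18 lower in DMSO, and 12 to 18 and 18 to 25 in doxorubicin. It gave 0 to 1 higher for doxorubicin in intact cells, 14 to 15 higher and 6 to 11 lower in deleted cells, and 8 to 11 and 2 to 8 for the difference of effects. Medians then ran from -0.12 to -0.05, -0.17 to -0.08, 0.01 to 0.09, 0.00 to 0.09 and -0.09 to 0.05 in that order of comparisons. In DMSO, no filter or only the groups compared left 6 higher, and no filter or a filter of 1 CPM in 3 libraries gave a median of -0.11. With a 2-fold change asked as well, 0 were higher and 2 lower in DMSO, 5 and 2 in doxorubicin, 7 and 0 for doxorubicin in deleted cells, and 5 and 0 for the difference of effects. With the GC trend removed the medians were 0.00 in DMSO, -0.04 in doxorubicin and -0.09 for the difference of effects, with 9 lower there. Library totals as the scaling gave 0.00 in doxorubicin, -0.01 for doxorubicin in intact cells, and 0.08 with 2 lower for the difference of effects, whose median over all genes it moved by 0.11. Only the groups compared gave -0.13 in doxorubicin. Without both libraries of high mitochondrial share the medians were -0.18 in doxorubicin, 0.10 for doxorubicin in intact cells and -0.14 for the difference of effects, with 10 lower. No filter and a filter of 1 CPM gave 0.04 and 0.03 for doxorubicin in intact cells, where DESeq2 called 1 higher, and no filter left 3 lower for the difference of effects.

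Same-numbered libraries shared little of their deviations from group means, with 2 of 18 pairs correlated over 0.1 (-0.224 to 0.118). Such correlations cannot tell whether the samples were paired, so the replicate block was fitted as an alternative. The replicate block gave 3 lower for the difference of effects, and with the GC trend removed as well it gave medians of -0.01 in DMSO, -0.04 in doxorubicin and -0.08 for the difference of effects. For each of these the cause was not tested. Every alternative that gave these values, the 2-fold criterion aside, kept 5 of 11 higher and 13 of 14 lower calls in DMSO, 12 of 17 and 15 of 21 in doxorubicin, 12 of 15 and 6 of 8 for doxorubicin in deleted cells, and 7 of 11 and 2 of 5 for the difference of effects. In simulated data, 50 of 21120 genes were changed at each fold in the deleted DMSO group, none of them from the lowest levels. The fit found 48 of 50 2-fold changes each way, and 21 of 50 increases and 25 of 50 decreases of 1.5-fold. In the real comparison 18.8% of genes were higher and 16.2% lower, so its adjusted threshold was less strict. The simulated shares therefore do not carry over to it, and small changes can still be missed at 3 libraries a group.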
